A study of Saccharomyces cerevisiae with 6 samples.

Results

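The genes described here encode the Rab5 machinery of the early endosome in budding yeast, Saccharomyces cerevisiae, and the endosomal syntaxin. The set holds 10 genes, VPS21, YPT52, YPT53, YPT10, VPS9, MUK1, VPS3, VPS8, PEP7 and PEP12, chosen by gene symbol in the platform annotation. Each had 1 probe set, so they make up 10 of the 5498 probe sets annotated to this yeast. They were measured on 6 Affymetrix expression arrays, 3 of wild type cells (title numbers 3, 4 and 6) and 3 of cells with a VPS4 deletion (title numbers 4, 5 and 6). Both genotypes were grown at 26 °C in synthetic medium containing the amino acids the cells needed and were harvested in mid-log phase. Strain background, mating type, the way VPS4 was removed and the number of clones are not stated in the labels. The labels do not say that the arrays came from separate cultures, so every standard error (SE) and interval describes the spread between these arrays, which may be technical.

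Rab5 GTPases switch between an inactive form bound to GDP and an active form bound to GTP. Exchange factors load GTP, and the active GTPase gathers tethers and other effectors that bring vesicles to the endosome, where SNARE proteins such as syntaxins drive fusion. Vps4 works in the same compartment: it is the ATPase that takes apart the ESCRT-III polymers which sort membrane proteins into multivesicular bodies. By its title, the study examined mutants of the ESCRT pathway.

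The arrays carried the VPS4 level their labels give. VPS4 (YPR173C) stood between 11.39 and 11.48 in wild type and between 1.29 and 1.75 in the deletion, where it was below background on every array, and it was at least 760.1-fold lower there (limma, Benjamini-Hochberg adjusted p = 1.30e-07). Wild type replicate 3 stood apart from the other arrays of its genotype. Its Pearson's r across probe sets, which are not independent replicates, was 0.9926 to each of them, against 0.9991 between replicates 4 and 6. Across genotypes, r ran from 0.9936 to 0.9943 for replicates 4 and 6 and from 0.9895 to 0.9899 for replicate 3. By r, replicate 3 thus lay further from its own group than the rest of that group lay from the deletion. The reason was not tested. Results are therefore also given without wild type replicate 3. All 4 markers of alpha cells were bright, with group means from 11.74 to 13.08 against 2.99 to 7.15 for the 6 markers of a cells. In the whole-table fit 2 of the 4 and 2 of the 6 were lower in the deletion and 0 were higher, where 1.46% of all probe sets were lower. Without wild type replicate 3 it was 3 of the 4 and 4 of the 6, where 10.1% were lower, and the part of mating genes in the results was not tested.

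Among the 10 genes, 3 were higher in the VPS4 deletion. YPT53, a stress-responsive relative of VPS21, was 2.75-fold higher, PEP12, the endosomal syntaxin, was 1.50-fold higher, and YPT52, another Rab5 GTPase, was 1.11-fold higher. The other 7 genes, which include the main Rab5 gene VPS21, both exchange factors, both CORVET subunits and the effector PEP7, differed by −0.10 to 0.15 log2 and did not pass. The set was drawn up with genotype differences on these arrays already known, the one of PEP12 among them, so the members' differences are given as descriptions with SE and 95% confidence interval, and without p-values. A gene is said to pass where its Benjamini-Hochberg adjusted p in a limma fit over all 5498 probe sets was below 0.05. By that rule 3 of 10 members passed and all 3 were higher, beside 4.27% of all probe sets in either direction and 2.82% higher. Nothing is read from that contrast of shares. The arrays read bulk RNA, so a difference in every cell and one in some of the cells cannot be told apart. The median difference was −0.01 over the members with all arrays and 0.06 without wild type replicate 3, so its sign turned, and it was −0.0019 and −0.0036 over all tested probe sets.

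**Figure D1:**
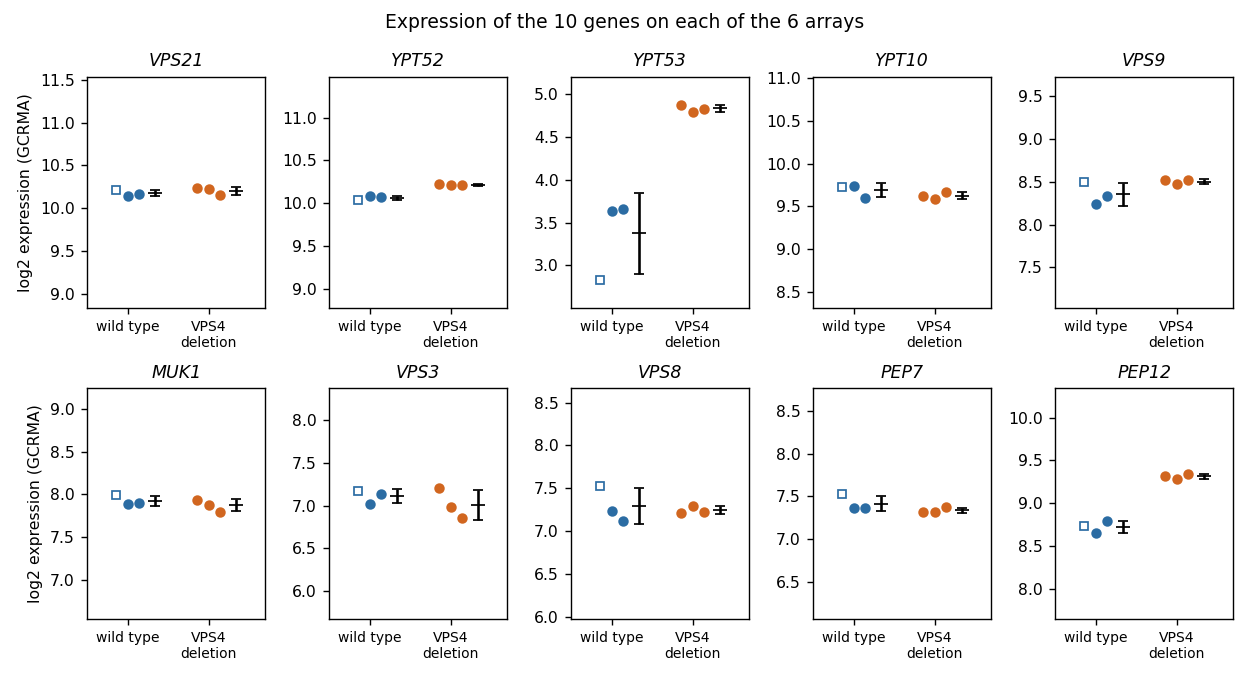
Log2 expression (GCRMA) of each gene on the 6 arrays, wild type in blue and VPS4 deletion in orange. The open square is wild type replicate 3, the bars to the right of the points are mean ± SD (n = 3), and every panel spans the same log2 range around its own middle. YPT53 and PEP12 show a clear gap between genotypes, 1.13 and 0.50 log2 wide, YPT52 a narrow one of 0.12, and the other 7 genes overlap.

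The GTPases come first. VPS21 (YOR089C) encodes the main Rab5 protein of yeast. Its log2 level was 10.21, 10.14 and 10.17 on wild type replicates 3, 4 and 6 and 10.23, 10.22 and 10.15 on deletion replicates 4, 5 and 6. The groups overlapped and differed by 0.03 ± 0.04 (SE), with an interval from −0.06 to 0.11. YPT10 (YBR264C), a more distant Rab5-like GTPase, read 9.73, 9.74 and 9.59 in wild type and 9.62, 9.59 and 9.67 in the deletion. It overlapped as well and differed by −0.06 ± 0.05 (SE). Neither gene passed, and the intervals bound the size of any difference without showing that there was none.

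YPT53 (YNL093W) had the largest difference of the 10 genes. It is a duplicate of VPS21 from the whole-genome duplication and encodes a Rab5 protein that is scarce in unstressed cells. Its level was 2.83, 3.63 and 3.66 on wild type replicates 3, 4 and 6 and 4.88, 4.79 and 4.83 on deletion replicates 4, 5 and 6. All deletion arrays lay above all wild type arrays, and replicate 3 was the lowest, differing by −0.82 log2 from the mean of the other wild type arrays. The means were 3.37 ± 0.47 and 4.83 ± 0.04 (SD, n = 3), a difference of 1.46 ± 0.22 (SE; interval 0.93 to 1.99), or 1.90-fold to 3.97-fold. Without wild type replicate 3 the difference was 1.19 ± 0.10 (SE), 2.28-fold. Over all probe sets 0.637% were higher by at least 1 log2, a share from which nothing is read.

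YPT53 was the dimmest of the 10 genes. It was above background on all 6 arrays, by a mean of 1.49 log2 in wild type and 2.96 log2 in the deletion, and by 0.94 on the array where it came closest. GCRMA draws dim probe sets toward the floor, which can alter both their spread and their differences. YPT53 had the widest wild type spread of the 10 genes (SD 0.47, n = 3). Whether GCRMA made its difference smaller or larger was not tested. The other 9 genes lay between 6.85 and 10.23 on every array. YPT53 and VPS21 are related in sequence; the YPT53 probe set is not of the kinds the platform marks as matching several transcripts, and cross-hybridisation was not tested.

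YPT52 (YKR014C), the remaining Rab5 GTPase, read 10.04, 10.08 and 10.07 on wild type replicates 3, 4 and 6 and 10.22, 10.21 and 10.21 on deletion replicates 4, 5 and 6. The groups did not overlap and the deletion arrays lay close together (SD 0.0062, n = 3). The difference was 0.15 ± 0.03 (SE; interval 0.08 to 0.22), or 1.05-fold to 1.16-fold. Its call was the least secure of the 3: it held in 1 of the 6 fits that left out an array, the one without wild type replicate 3 (0.13 ± 0.03, SE), and ended without any of the other 5 arrays, where the difference stayed between 0.14 and 0.16.

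**Figure D2:**
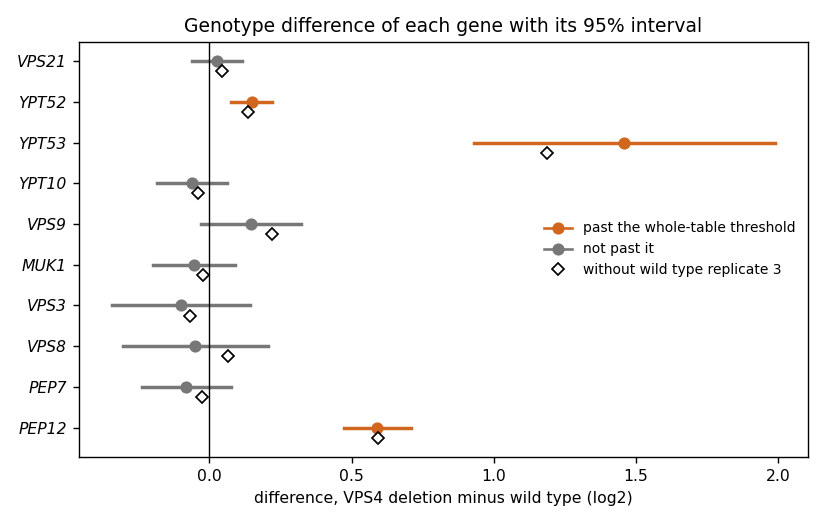
Difference between genotypes (VPS4 deletion minus wild type, log2) for each gene, with its 95% confidence interval from the whole-table fit. Orange marks genes past the whole-table threshold, grey the others, and open diamonds the difference without wild type replicate 3. YPT53 and PEP12 stand away from 0 with and without that array, and the diamond of VPS8 lies on the other side of 0 from its point.

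The exchange factors load Rab5 proteins with GTP. VPS9 (YML097C), the main one, read 8.50, 8.24 and 8.33 on wild type replicates 3, 4 and 6 and 8.52, 8.47 and 8.52 on deletion replicates 4, 5 and 6. Replicate 3 lay inside the range of the deletion arrays and the other wild type arrays lay below it. With all arrays VPS9 differed by 0.15 ± 0.07 (SE; interval −0.03 to 0.32) and did not pass. Without wild type replicate 3 it did pass, higher by 0.22 ± 0.05 (SE), 1.16-fold, in a fit that called 22.0% of all probe sets (11.9% higher). MUK1 (YPL070W), the second factor of the same domain family, read 7.99, 7.88 and 7.90 in wild type and 7.94, 7.88 and 7.80 in the deletion. Its groups overlapped, and the difference was −0.05 ± 0.06 (SE).

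VPS3 and VPS8 encode the subunits that set CORVET, the tether of early endosomes, apart from HOPS, the tether of the vacuole. VPS3 (YDR495C) read 7.18, 7.02 and 7.14 on wild type replicates 3, 4 and 6 and 7.20, 6.98 and 6.85 on deletion replicates 4, 5 and 6. It had the widest spread of the 10 genes in the deletion (SD 0.18, n = 3), and its difference was −0.10 ± 0.10 (SE; interval −0.34 to 0.14). VPS8 (YAL002W), whose product binds active Vps21, read 7.52, 7.23 and 7.12 in wild type and 7.21, 7.29 and 7.22 in the deletion. Replicate 3 was the highest array for VPS8, 0.35 above the other wild type arrays. The difference was −0.05 ± 0.11 (SE) with all arrays and 0.07 ± 0.07 without replicate 3, so its sign turned, and it passed in neither fit.

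PEP7 (YDR323C, also VAC1) encodes an effector with a FYVE domain that binds phosphatidylinositol 3-phosphate and links active Vps21 to the fusion machinery of Pep12. It read 7.52, 7.37 and 7.36 on wild type replicates 3, 4 and 6 and 7.31, 7.32 and 7.38 on deletion replicates 4, 5 and 6. The groups overlapped and differed by −0.08 ± 0.07 (SE; interval −0.24 to 0.08).

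PEP12 (YOR036W) encodes the syntaxin through which Golgi and endocytic vesicles fuse with the endosome. Its level was 8.73, 8.65 and 8.79 on wild type replicates 3, 4 and 6 and 9.31, 9.29 and 9.34 on deletion replicates 4, 5 and 6. Every deletion array lay above every wild type array, with 0.50 log2 between the nearest arrays. The means were 8.72 ± 0.07 and 9.31 ± 0.03 (SD, n = 3). The difference was 0.59 ± 0.05 (SE; interval 0.47 to 0.71), or 1.39-fold to 1.63-fold. Wild type replicate 3 lay 0.01 from the mean of the other wild type arrays for PEP12, and without it the difference was again 0.59 ± 0.05 (SE).

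Altogether the groups did not overlap for 3 of the 10 genes, all higher in the deletion, beside 24.8% of all probe sets in either direction and 13.0% higher. By role, 2 of 4 GTPase genes and the syntaxin passed, 0 of 2 exchange factors and 0 of 2 CORVET genes did, and the effector did not. Over all probe sets 4.27% passed, and 2.82% passed higher. YPT52, which passed, and VPS9, which did not, each differed by 0.15 log2, so nothing is read from the counts by role. Among the 7 genes that did not pass, 5 differences were negative and 2 positive, and their intervals together ran from 0.79-fold to 1.25-fold. Wild type replicate 3 lay above the mean of the other wild type arrays for 8 of the 10 genes and below it for YPT52 and YPT53, with a median offset of 0.08 over the members and 0.00 over all tested probe sets. With 3 arrays in each genotype the smallest two-sided p that an exact permutation test could reach is 0.1.

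**Figure D3:**
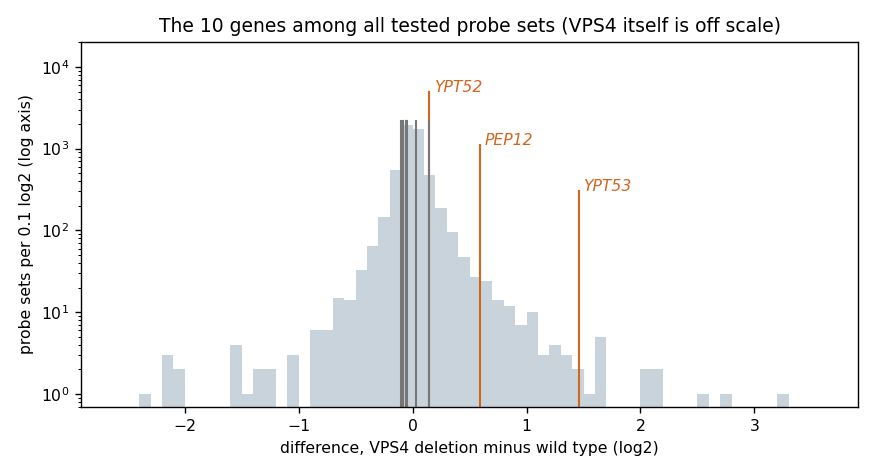
Histogram of the difference between genotypes (VPS4 deletion minus wild type, log2, in steps of 0.1) over the tested probe sets, with a log count axis, leaving out VPS4 at −9.96. Vertical lines mark the 10 genes, orange where they passed, and their heights carry no value. In size of difference YPT53 is number 25 and PEP12 number 144 of the 5498 probe sets, while the other lines stand in the central peak.

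PEP12, YPT53 and YPT52 differed in how many of the fits that left out an array kept their calls. PEP12 passed in all 6 fits that left out an array, with differences from 0.55 to 0.62. Its difference on these arrays was known when the set was drawn up, so refits of the same arrays give it no separate support. YPT53 passed in the 3 fits that left out a wild type array, with differences up to 1.60, and did not pass in the 3 that left out a deletion array, where the difference was 1.44 without replicate 4, 1.48 without replicate 5 and 1.46 without replicate 6. The SE of YPT53 was 0.27 in each of those 3 fits, against 0.22 with all arrays. The share of all probe sets called was 1.05%, 0.400% and 0.855% in those 3 fits, and 2.15%, 1.87% and 22.0% in the fits without wild type replicates 4, 6 and 3. VPS9 passed in 1 of the 6 fits, and the remaining 6 genes in 0.

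**Figure D4:**
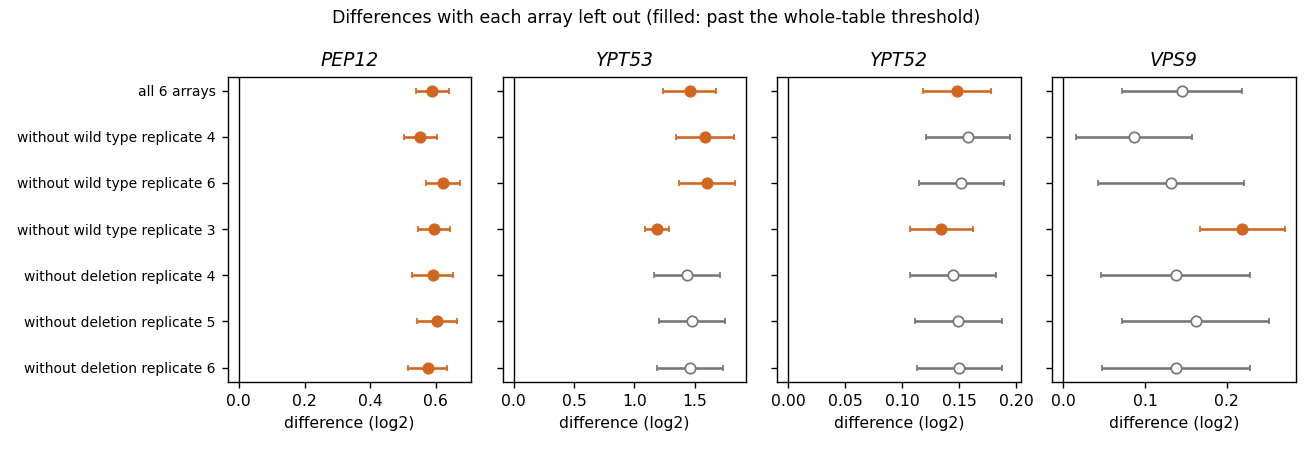
Difference between genotypes (log2, points with SE bars) for PEP12, YPT53, YPT52 and VPS9 with all 6 arrays and with each array left out. Filled orange points passed the whole-table threshold and open grey points did not. PEP12 passed in every fit shown, YPT53 in 4 of the 7, YPT52 in 2 and VPS9 in 1, and all differences shown are above 0.

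The genes next to the 3 higher members were read from a gene table of assembly R64. SHE4 and CYC2 adjoin PEP12 and differed by 0.11 ± 0.08 and 0.04 ± 0.05 (SE). APP1 and YNL092W adjoin YPT53 and differed by 0.03 ± 0.04 and 0.32 ± 0.11. PRY2 and YKR015C adjoin YPT52 and differed by 0.14 ± 0.05 and −0.12 ± 0.15. YKR015C was above background on only 2 wild type arrays and 1 deletion array, so its difference lies at the floor. None of these 6 neighbours passed the limma fit, with adjusted p from 0.215 for YNL092W to 0.778 for CYC2.

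The probe sets most like PEP12 were sought by the Euclidean distance between log2 profiles over the 6 arrays, each taken relative to its own mean, among 5337 others above background on all arrays. The nearest were PPM1, which encodes the carboxyl methyltransferase of protein phosphatase 2A, at 0.14 and GOR1, a glyoxylate reductase gene, at 0.15. YMR090W, YBR053C and YNL208W followed at 0.18, 0.18 and 0.19. Their differences between genotypes ran from 0.46 for YNL208W to 0.70 for GOR1, on either side of the 0.59 of PEP12; since they were picked for profiles like that of PEP12 on these arrays, this closeness was fixed by the choice.

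The wider pathway was described with 66 other genes in 6 lists, of which 1 passed higher, 0 passed lower and 65 did not pass, with 11 at an unadjusted p under 0.05 in limma. That is 1.52% called and 16.7% unadjusted, beside 4.27% and 17.4% of all tested probe sets. The gene that passed was CLC1, the clathrin light chain, whose level was 11.36 ± 0.05 on wild type arrays and 11.51 ± 0.01 on deletion arrays (SD, n = 3), higher by 0.15 ± 0.03 (SE; limma adjusted p = 0.0467). The call of CLC1 ended in 10 of its 16 alternatives, including without each array other than wild type replicate 3, where the limma adjusted p ran from 0.130 to 0.194.

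In the GTPase cycle list, which holds the factors that prenylate, escort, inhibit or switch off Rab proteins, 0 of 16 genes passed (limma; 3 at an unadjusted p under 0.05) and the median difference was −0.03. In the list of other Rab GTPases 0 of 7 passed (1 unadjusted), with a median of 0.07. With all arrays the 7 differences ran from 0.0027 for YPT6 to 0.14 for YPT11; without wild type replicate 3, YPT6 turned to −0.01 and 6 of 7 were positive. In the list of the class C core, which CORVET shares with HOPS, the other HOPS subunits and the Rab7 exchange factor, 0 of 8 passed (0 unadjusted), with a median of −0.07 and differences from −0.16 for MON1 to −0.0016 for CCZ1. All 8 were negative with all arrays, but only 4 of 8 were without wild type replicate 3. Over all tested probe sets 48.9% of differences were positive with all arrays and 48.4% without that one. In the list for phosphatidylinositol 3-phosphate, the lipid that Pep7 binds, 0 of 9 passed (1 unadjusted), with a median of −0.05, or 0.01 without wild type replicate 3. Among 17 genes of SNAREs and their SM partners 0 passed (2 unadjusted), with a median of 0.04. VTI1, the SNARE partner of Pep12, differed by 0.13 ± 0.03 (SE; limma adjusted p = 0.102), and VPS45, the SM protein that Pep7 binds, by 0.03. Among 9 genes of Golgi to endosome traffic 1 passed (4 unadjusted), with a median of 0.09. VTI1, VPS45 and the genes at the ends of these ranges were chosen after their values were seen.

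Without wild type replicate 3, 13 of the 66 genes were higher and 0 lower, beside 11.9% and 10.1% of all probe sets, and the members' own count was 4 higher and 0 lower. The 5 of 9 Golgi to endosome genes that passed there were GGA1 and ENT3, adaptors that recruit clathrin at the Golgi, CHC1 and CLC1, the clathrin chains, and SWA2, an auxilin-like protein that uncoats clathrin vesicles. GGA1 was the widest, higher by 0.77 ± 0.05 (SE; limma adjusted p = 9.44e-06) without that array and 0.59 ± 0.15 with it (0.0869). Of the other lists, GYP7, ROY1 and YIP3 passed in the GTPase cycle, YPT1 and YPT7 among Rab GTPases, and SSO1, SSO2 and VTI1 among SNAREs. ROY1 encodes an inhibitor of Ypt52 and was higher by 0.23 ± 0.05 (SE; limma adjusted p = 0.0108) without replicate 3, but differed by 0.13 ± 0.09 with all arrays, where it did not pass (limma adjusted p = 0.510). These genes, CLC1 aside, were named after their values were seen.

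**Figure D5:**
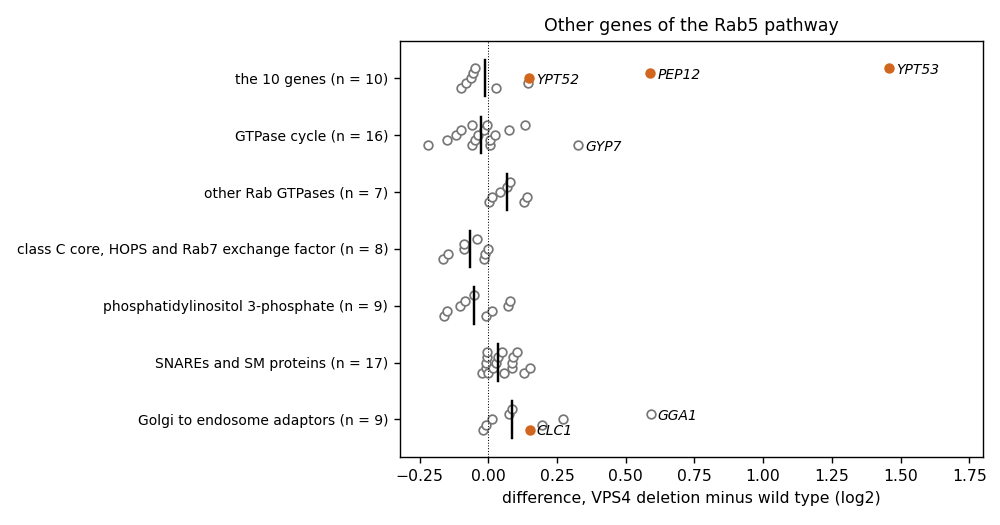
Difference between genotypes (VPS4 deletion minus wild type, log2) for the 10 genes and for the 66 other genes of the Rab5 pathway, 1 point per gene, by list. Black bars are list medians, filled orange points passed the whole-table threshold with all 6 arrays, and the points are offset vertically for clarity only. The list medians lie between −0.07 and 0.09, and CLC1 is the 1 filled point outside the set of 10.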

How the data were processed

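The authors deposited 1 table with a log2 expression value for each probe set and array. Per the submitters' processing notes it was made with GCRMA, which corrects background by probe sequence, normalizes between arrays and summarises probes; no version is named. Nothing further was normalized. Platform annotation named the probe sets, and a table of R64 genes gave current symbols and neighbours. Of 10928 probe sets, 7244 carried 1 symbol and 1 carried several. Those of Saccharomyces cerevisiae (5498, for 5449 genes) entered the fit. Background on an array was set at percentile 95 of the 1747 probe sets for the other yeast, and 97.5% to 98.0% of the 5498 exceeded it. The bound for VPS4 takes, on each deletion array, background or its own value, whichever is higher.

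The genotypes were compared with limma 3.58.1 (R 4.3.3; lmFit and eBayes, mean-variance trend, genotype as only factor, two-sided tests). Benjamini-Hochberg adjustment ran over the 5498 probe sets at a threshold of 0.05. The sign of every difference is that of VPS4 deletion minus wild type. The model was first tested on simulated data. Those values were drawn independently for each probe set without a shift of any whole array, so that test cannot show how the fit behaves when an array stands apart. With 3 arrays per genotype, their number limits the precision. Members and lists were chosen with earlier results of these data known. Where a list gene had several probe sets, the brightest was used. Named by rule are the members, VPS4, up to 3 list genes past the threshold per list, the 5 profiles nearest PEP12 and genes adjoining members that passed. Alternatives changed the variance settings, the dim filter, the scaling, the features tested, array weights, the replicate block, the arrays used and the threshold (0.01 and 0.1). A planned promoter motif search was not run.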

Additional observations from a re-analysis of the deposited data

How the results depend on the processing

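The count of probe sets called, 235 with all arrays, ran from 22 to 1212 when each array was left out, and was 1036 with array weights, 67 at a threshold of 0.01 and 422 at 0.1. The highest count came without wild type replicate 3 and the lowest without deletion replicate 5. The members called, 3 with all arrays, ran from 1 to 4 with an array left out and numbered 1 at 0.01, PEP12. PEP12 passed under all 17 settings, the main one included, YPT53 under 13, YPT52 under 7 and VPS9 under 3, and 6 members under none. Under these settings no member that passed changed sign. All settings reuse the arrays on which the PEP12 difference was already known, so its count is no separate support. The count of other pathway genes called, 1 in the main fit, became 2 without dim probe sets or with quantile normalization. It became 0 with median centring, with all probe sets tested or at 0.01, 13 with array weights and 3 at 0.1. With an array left out it ran from 0 to 13 (limma, with 11 at an unadjusted p under 0.05 with all arrays). Without the variance trend and with a robust variance prior the count stayed 1. CLC1 did not pass in either of those fits (limma adjusted p = 0.0972 and 0.0542), so the gene counted there was another. The title numbers 4 and 6 occur in both genotypes, but the labels do not say that they pair arrays, and deviations from the group means correlated across probe sets by 0.021 for number 4 and −0.059 for number 6. With the number as a replicate block, 858 probe sets, 4 members (VPS9 added) and 8 other pathway genes were called. Numbers 3 and 5 occur on 1 array each, so that fit takes every genotype difference from the arrays numbered 4 and 6 alone. It thus also leaves wild type replicate 3 out of the differences, and its call of VPS9 is not separate from the fit without that array. VPS9 also passed with array weights, where it differed by 0.21, beside 0.22 without wild type replicate 3. How far the weights lowered the part of that array was not tested. The causes of these shifts were not tested. Each member had 1 probe set, so the planned change of probe set was not run. YPT53 has the lowest signal over background of the members.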
